A study of Mus musculus with 22 samples.

Results

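The genes described are 10 members of the JAK-STAT pathway: the feedback inhibitors Cish, Socs1, Socs2 and Socs3, the kinases Pim1 and Pim2, the repressor Bcl6, and the transcription factors Stat3, Stat5a and Stat5b. They were chosen by name from what is known of the pathway, with earlier results of these data in view, and make up 10 of the 22180 genes measured. Of the 23521 probes with 1 gene symbol, 14 belong to them: Cish, Socs2, Socs3 and Pim1 have 2 probes each and the other genes 1.

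Expression was measured on 22 arrays, 1 RNA sample to an array, in haematopoietic stem cells of fetal liver. They were sorted after culture as SLAM LSK cells, which lack lineage markers, carry Sca-1 and Kit, and are gated on SLAM family proteins. The embryos were wild-type C57Bl/6J mice at E14.5. OP9-DL1, stromal cells from bone marrow that carry the Notch ligand Dll1, lay under the culture in every group, so the controls received a Notch signal too. The groups were GSI at 10 h (1 µM gamma-secretase inhibitor, n = 4), its DMSO vehicle at 10 h (n = 4), GSI at 4 h (1 µM, n = 7) and DMSO at 4 h (n = 7). A gamma-secretase inhibitor blocks the cleavage that frees the active part of a Notch receptor, and it also stops the cleavage of other membrane proteins. The design text pairs 1 GSI with 1 DMSO sample in each biological replicate, and codes in the sample descriptions, whose meaning is not stated, place the pairs in runs. At 10 h run 1 holds pairs 1 and 2 and run 2 holds pairs 3 and 4. At 4 h run 1 holds pair 1, run 2 holds pairs 2 and 3, and run 3 holds pairs 4 to 7.

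When a cytokine binds its receptor, JAK kinases phosphorylate STAT proteins, which enter the nucleus and switch on genes. Among the genes that STAT5 and STAT3 switch on are Cish and the SOCS genes, whose proteins bind the receptor or the JAK and damp the signal, and the Pim kinases, which favour survival and growth. In haematopoietic stem and progenitor cells, the receptors of thrombopoietin, IL-3 and G-CSF are among those linked to this pathway. Transcripts of the feedback genes are widely read as signs of cytokine input, although other signals reach them as well.

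Promoter windows are shown because several of these genes are known STAT targets, and the letters of a STAT-type motif can be searched for in them. RefSeq windows of assembly GRCm38.p6, each running from 250 bases before to 50 bases after an annotated start site, were found for 9 of the genes (13 windows of 300 bases). Socs2 had no window. The motif searched was TTCNNNGAA, which reads the same on both strands. Capitals mark its matches, and each sequence is written 5′ to 3′ on the strand of the gene.
Cish chr9:107296409-107296708 (plus strand): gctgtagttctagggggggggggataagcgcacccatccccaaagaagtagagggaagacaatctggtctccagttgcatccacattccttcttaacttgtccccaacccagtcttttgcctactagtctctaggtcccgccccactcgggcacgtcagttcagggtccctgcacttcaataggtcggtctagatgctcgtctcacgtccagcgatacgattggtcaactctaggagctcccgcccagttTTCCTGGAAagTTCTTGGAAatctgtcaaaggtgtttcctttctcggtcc
Socs3 chr11:117969317-117969616 (minus strand): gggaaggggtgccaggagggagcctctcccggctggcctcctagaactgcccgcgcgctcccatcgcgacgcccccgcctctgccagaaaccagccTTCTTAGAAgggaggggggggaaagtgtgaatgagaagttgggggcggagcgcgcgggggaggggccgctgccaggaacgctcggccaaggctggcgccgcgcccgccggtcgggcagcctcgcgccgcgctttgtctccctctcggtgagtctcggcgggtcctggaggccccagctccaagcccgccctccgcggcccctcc
Bcl6 chr16:23981234-23981533 (minus strand): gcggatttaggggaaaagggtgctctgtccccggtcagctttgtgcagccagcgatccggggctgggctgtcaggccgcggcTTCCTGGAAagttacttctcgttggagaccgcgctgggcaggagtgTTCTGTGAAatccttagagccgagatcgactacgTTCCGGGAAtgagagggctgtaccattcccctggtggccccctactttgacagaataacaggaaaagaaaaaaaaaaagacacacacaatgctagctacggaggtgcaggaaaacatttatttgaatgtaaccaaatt
The Cish window holds 2 matches, TTCCTGGAA at bases 251 to 259 and TTCTTGGAA at bases 262 to 270. In the Bcl6 window there are 3, at bases 83 to 91, 129 to 137 and 163 to 171, and the Socs3 window has 1, at bases 97 to 105. A second Bcl6 window, chr16:23988803-23989102, holds 1 match, TTCTCAGAA. No match was in the windows of Socs1, Pim1, Pim2, Stat3, Stat5a or Stat5b. Thus 4 of the 13 windows (30.8%) hold the motif, beside 2726 of all 32851 windows (8.3%). At least 2 matches occur in 0.457% of all windows and 3 or more in 0.0335%. A match of letters is a description, and binding was not measured here.

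Values are log2 levels after RMA, which summarises probe signals after normalizing arrays to each other. Differences are GSI minus DMSO on that log2 scale, and a gene passed where limma's test gave a Benjamini-Hochberg adjusted p under 0.05 over all 22180 genes. Array medians were 4.45 to 4.52 at 10 h and 5.03 to 5.12 at 4 h, so levels at both times are compared only after each array's median is taken off. Hes1, a direct Notch target, served as a check of the inhibitor: it fell by 1.36 at 10 h (adjusted p = 4.72e-05, limma) and by 0.97 at 4 h (adjusted p = 0.000199, limma), in every pair. Of 14 measured genes in the stem cell marker list 13 were above the array median on average at 4 h and 14 at 10 h. Slamf1, a SLAM marker, was the one below, at -1.08 relative to the median in GSI and -1.10 in DMSO samples at 4 h. The list also holds Cd48, which does not mark stem cells in SLAM gating. Cd48 stood 2.19 over the median in GSI and 2.04 in DMSO samples at 10 h, and 0.05 and 0.15 at 4 h. At 10 h 13 of the 14 markers were higher with GSI, beside 46.2% of all genes, by unlike amounts. Flt3 averaged 6.17 in GSI and 4.90 in DMSO samples, and Procr, the one that was lower, 6.87 and 6.92. All 10 endothelial markers were above the array median in every group, with list means of 6.10 to 7.56 in GSI and 6.10 to 7.79 in DMSO samples at 10 h, and of 7.98 to 10.40 in GSI and 7.87 to 10.41 in DMSO samples at 4 h.

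Cish encodes an SH2 protein that is induced by STAT5 and occupies its docking sites on cytokine receptors. At the probe with the higher mean (17530881) it stood at 6.90, 7.06, 8.12 and 8.45 in GSI samples of pairs 1 to 4 at 10 h, against 6.45, 6.41, 7.07 and 7.75 in DMSO samples of the same pairs. Each GSI sample was above its own partner, by 0.45, 0.64, 1.05 and 0.70. The groups overlapped, as the DMSO samples of run 2 stood above the GSI samples of run 1. Cish rose by 0.71 ± 0.119 (SE, 4 pairs), or 1.63-fold (adjusted p = 0.0189, limma), and was the 1 gene of the 10 to pass at 10 h, where 148 of 22180 genes (0.667%) passed. In the same pairs the mean of the stem cell markers differed by 0.79, 0.37, 0.30 and 0.34 that of 20 stromal markers by 0.13, -0.63, -0.50 and -0.29, and that of 11 measured hepatocyte markers of 12 by -0.30, -0.66, 1.04 and -0.36; their part in the result was not tested. In samples of sorted cells, more cells of a type and more RNA per cell cannot be told apart.

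Cish did not pass in every way of reading the arrays. Its other probe (17521300) gave 0.15 ± 0.138 (SE, 4 pairs), with a positive difference in 2 of 4 pairs (adjusted p = 0.672, limma). With the mean of both probes the gene gave 0.43 (adjusted p = 0.111, limma), and without pair 4 it gave 0.71 (adjusted p = 0.0614, limma). In a fit with a separate effect for each run Cish had 0.87 in run 2 (adjusted p = 0.0454, limma; 0.117% of genes passed) and 0.54 in run 1 (adjusted p = 0.146, limma; 0.271% passed). The difference between these runs, 0.33, did not pass (adjusted p = 0.714, limma). Without pair 3 Cish gave 0.59 and passed (adjusted p = 0.0444, limma). Over all alternatives its value ran between 0.43 and 0.87 and its adjusted p between 0.00943 and 0.867.

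At 4 h Cish had a lowest, median and highest level of 7.80, 8.27 and 9.60 in GSI samples, against 7.81, 8.69 and 9.52 in DMSO samples. The ranges nearly coincided, and 3 of 7 pairs were positive. The fitted difference was -0.06 ± 0.0897 (SE, 7 pairs; adjusted p = 0.999, limma), and its other probe gave 0.05. The difference between the 10 h and the 4 h effect, 0.77 ± 0.149 (SE), did not pass either (adjusted p = 0.203, limma; 4 genes, 0.018%, passed). An unadjusted p under 0.05 for that difference was reached by Cish and Socs2, beside 9.36% of all genes.

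**Figure D1:**
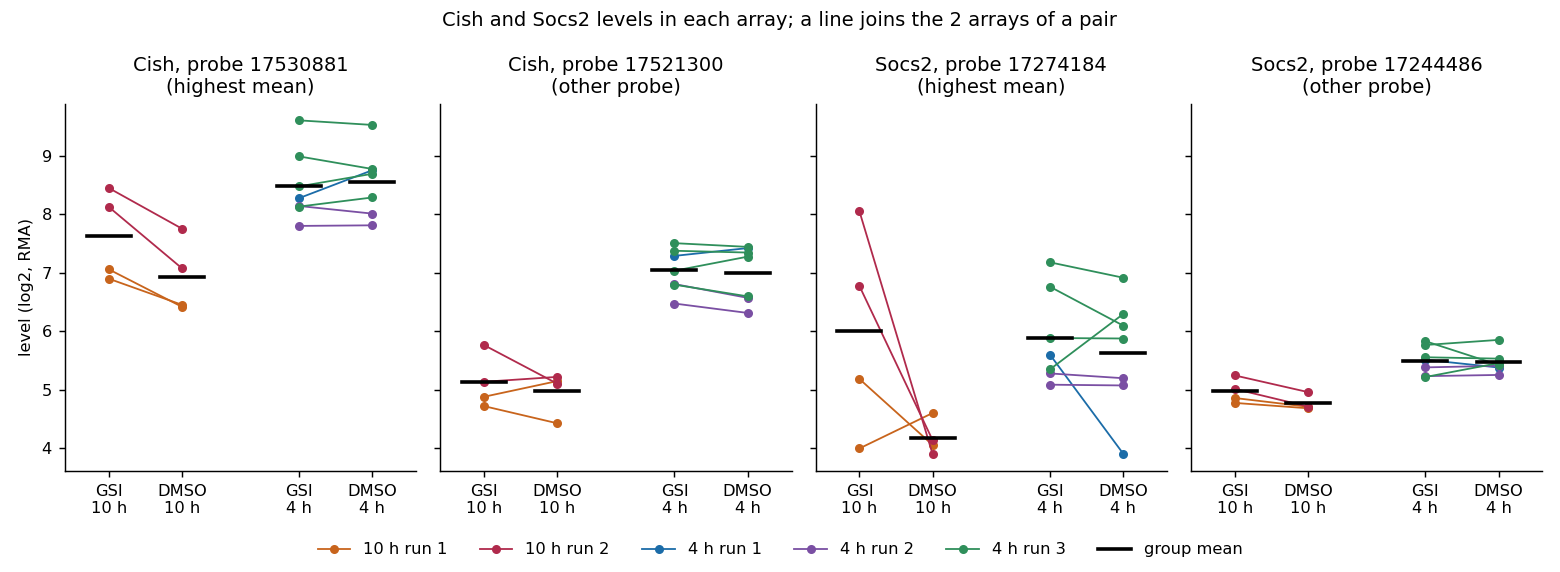
Log2 level (y axis) of both probes of Cish and of Socs2 in each array, with GSI left of DMSO at 10 h and at 4 h; a line joins a pair, colours mark runs and black bars are group means. The main Cish probe is higher in GSI than in DMSO in all 4 pairs at 10 h, and the main Socs2 probe is between 3.89 and 4.60 in DMSO samples at 10 h.

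Socs2, a STAT5-induced gene whose protein restrains growth hormone receptor signalling, gave the widest spread between pairs of the 10 genes at both times. At its probe with the higher mean (17274184) GSI samples of pairs 1 to 4 at 10 h stood at 3.99, 5.18, 6.77 and 8.05, against 4.60, 4.05, 4.13 and 3.89 in DMSO samples. The DMSO samples lay close together, between -0.63 and 0.11 relative to their array medians, while the GSI samples lay far apart and 1 of them was below its partner. The differences were -0.61, 1.13, 2.64 and 4.16. Their fitted mean was 1.83 ± 0.518 (SE, 4 pairs), a 3.55-fold difference that did not pass (adjusted p = 0.117, limma).

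The Socs2 values of the runs lay apart, but with 2 pairs to a run an effect of run cannot be told from variation between pairs. In the same fit by run, Socs2 rose by 3.40 ± 0.423 (SE, 2 pairs) in run 2 (adjusted p = 0.00846, limma), and gave 0.26 ± 0.423 (SE, 2 pairs) in run 1 (adjusted p = 0.887, limma). The difference between these runs, 3.14 ± 0.598 (SE), did not pass (adjusted p = 0.179, limma; 0.00902% passed). Without pair 1 the gene passed at 2.64 (adjusted p = 0.0283, limma), and without pair 4 it gave 1.05 (adjusted p = 0.434, limma). Over all alternatives its adjusted p ran between 0.00135, with run 2 fitted alone, where 0.0676% of genes passed, and 0.961.

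The other Socs2 probe (17244486) moved far less. GSI minus DMSO there was 0.15, 0.09, 0.30 and 0.29 in pairs 1 to 4 at 10 h, positive in all of them, as was so for 8.47% of all genes. Its fitted value was 0.21 ± 0.11 (SE, 4 pairs; adjusted p = 0.422, limma with all probes as features). The signs of both Socs2 probes were the same in 3 of 4 pairs, and the sizes were not.

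Socs2 at 4 h had a lowest, median and highest level of 5.08, 5.60 and 7.18 in GSI samples, against 3.91, 5.87 and 6.91 in DMSO samples. In 6 of 7 pairs the difference was positive, yet pair 1 alone gave 1.69 and pair 7 gave -0.95. The fitted value was 0.25 ± 0.391 (SE, 7 pairs; adjusted p = 0.999, limma) and 0.01 without pair 1. Pair 1 at 4 h also had the neutrophil and monocyte marker mean 1.45 higher, the stromal mean 0.87 higher and the macrophage mean 0.79 higher in the GSI sample than in its DMSO partner; their part in the result was not tested.

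Socs1, which binds JAK kinases directly and is induced by interferon as well as by STAT5 and STAT6, stood at 6.14, 6.33, 7.09 and 7.21 in GSI samples of pairs 1 to 4 at 10 h, against 6.24, 6.02, 6.74 and 7.42 in DMSO samples. Pairs 2 and 3 were positive and pairs 1 and 4 negative, and the value was 0.09 ± 0.119 (SE, 4 pairs; adjusted p = 0.784, limma). At 4 h its lowest, median and highest levels were 6.61, 7.04 and 7.71 in GSI samples and 6.50, 6.70 and 7.36 in DMSO samples, and 6 of 7 pairs were positive. The value was 0.24 ± 0.0897 (SE, 7 pairs; unadjusted p = 0.0176 and adjusted p = 0.999, limma). At 4 h 4.21% of all genes had an unadjusted p under 0.05, and 1 gene (0.00451%) passed.

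Socs3, the STAT3-induced inhibitor of gp130 and G-CSF receptor signalling, was the 1 gene of the group with a negative value at 10 h. It stood at 5.17, 6.25, 7.64 and 7.53 in GSI samples of pairs 1 to 4, against 6.51, 6.58, 7.17 and 7.57 in DMSO samples. The differences were -1.34, -0.33, 0.47 and -0.04, so the 2 largest negative differences were those of run 1. The fitted value was -0.31 ± 0.219 (SE, 4 pairs; adjusted p = 0.556, limma), with -0.83 in run 1 and 0.22 in run 2, and the difference between the runs, 1.05, did not pass (adjusted p = 0.444, limma). Its other probe gave -0.12 at 10 h, with 0.05, -0.29, 0.40 and -0.66 in pairs 1 to 4. The largest negative difference there was thus in run 2. At 4 h Socs3 had 7.50 as its median in GSI samples (6.77 to 9.18) and 7.79 in DMSO samples (6.98 to 9.33), with 4 of 7 pairs positive and a value of 0.05 ± 0.165 (SE, 7 pairs; adjusted p = 0.999, limma).

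Pim1, a constitutively active serine and threonine kinase that STAT5 and STAT3 induce, had positive values at both times. At 10 h its main probe (17335540) stood at 7.30, 7.90, 8.98 and 8.03 in GSI samples of pairs 1 to 4, against 7.39, 7.65, 7.85 and 7.90 in DMSO samples. Only pair 3 differed by more than 0.3 in these arrays, with 1.13, and the value was 0.35 ± 0.189 (SE, 4 pairs; adjusted p = 0.419, limma). Pair 3 was also the one with the hepatocyte marker mean higher in the GSI sample, at 6.41 against 5.37 in its DMSO partner; their part in the value was not tested. At 4 h the lowest, median and highest levels were 8.56, 8.995 and 9.60 in GSI samples and 8.03, 8.74 and 9.36 in DMSO samples. The value was 0.33 ± 0.143 (SE, 7 pairs; unadjusted p = 0.0346 and adjusted p = 0.999, limma).

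Most of the Pim1 value at 4 h came from run 2, whose pairs gave 1.11 and 0.67. In the fit by run Pim1 had 0.89 ± 0.198 (SE, 2 pairs) in run 2 (unadjusted p = 0.000614 and adjusted p = 0.471, limma) and 0.07 ± 0.14 (SE, 4 pairs) in run 3. In run 2 at 4 h 3 genes (0.0135%) passed and 4.12% had an unadjusted p under 0.05; in run 3 no gene (0%) passed and 973 genes (4.39%) did so unadjusted. Run 3 minus run 2 was -0.82 ± 0.242 (SE), with an unadjusted p of 0.00494 (4.19% of genes were under 0.05) and an adjusted p of 0.999 (limma; 0% passed). When run 2 was fitted on its own 4 arrays, Pim1 passed (adjusted p = 0.00531, limma), as did 148 genes (0.667%) in that fit. The other Pim1 probe (17343057) gave -0.13 at 10 h and -0.01 at 4 h, neither of which passed.

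Pim2, the second Pim kinase, had differences of 0.21, 0.34, 0.02 and -0.03 in pairs 1 to 4 at 10 h, and a value of 0.13 ± 0.113 (SE, 4 pairs; adjusted p = 0.638, limma). Its lowest, median and highest levels at 4 h were 6.95, 7.19 and 7.43 in GSI samples and 6.88, 6.93 and 7.37 in DMSO samples, with 6 of 7 pairs positive. The value at 4 h was 0.17 ± 0.0856 (SE, 7 pairs; adjusted p = 0.999, limma).

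Bcl6 encodes a zinc finger repressor that competes with STAT proteins for some of their sites and is itself under STAT control in lymphoid cells. At 10 h it stood at 5.18, 5.90, 5.82 and 5.26 in GSI samples of pairs 1 to 4, against 4.93, 5.71, 5.52 and 4.88 in DMSO samples. Each pair was positive, by 0.25, 0.19, 0.30 and 0.38, and the value was 0.28 ± 0.178 (SE, 4 pairs; adjusted p = 0.504, limma). At 4 h the lowest, median and highest levels were 7.38, 7.58 and 7.84 in GSI samples and 6.46, 7.39 and 8.12 in DMSO samples, and 3 of 7 pairs were positive. As with Pim1, the pairs of run 2 stood out, with 1.12 and 0.55. The value was 0.84 ± 0.185 (SE, 2 pairs) in run 2 (unadjusted p = 0.000599 and adjusted p = 0.471, limma) and 0.01 in run 3, and over all pairs 0.22 ± 0.135 (SE; adjusted p = 0.999, limma). Fitted on its own, run 2 gave Bcl6 an adjusted p of 0.0285 (limma; 0.667% of genes passed). In the same 2 pairs the stem cell marker mean differed by 0.18 and 0.17, and the endothelial mean by 0.31 and -0.14. The stromal mean differed by -0.04 and 0.30, the megakaryocyte mean by 0.18 and 0.42 and the hepatocyte mean by 0.16 and 0.32. For neutrophils and monocytes the differences were 0.43 and 0.09, and for macrophages 0.19 and 0.07. Erythroid markers gave 0.04 and 0.28, and mast cell markers -0.06 and 0.05. The part of these markers in the Pim1 and Bcl6 values was not tested.

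None of the STAT genes themselves passed at either time. Stat3, which carries signals of the IL-6 and G-CSF type, had values of 0.10 ± 0.0931 (SE, 4 pairs) at 10 h (adjusted p = 0.68, limma) and 0.07 ± 0.0703 (SE, 7 pairs) at 4 h. Its level averaged 8.46 ± 0.328 in GSI and 8.37 ± 0.289 in DMSO samples at 10 h (SD, n = 4), and 9.69 ± 0.155 in GSI and 9.62 ± 0.235 in DMSO samples at 4 h (SD, n = 7). Stat5a and Stat5b are neighbouring genes whose proteins act downstream of thrombopoietin, erythropoietin and IL-3. Stat5a had 0.12 ± 0.141 (SE, 4 pairs) at 10 h (adjusted p = 0.762, limma) and -0.11 ± 0.106 (SE, 7 pairs) at 4 h, where 6 of 7 pairs were negative. Stat5b had 0.08 ± 0.0957 (SE, 4 pairs) at 10 h (adjusted p = 0.757, limma) and -0.03 ± 0.0724 (SE, 7 pairs) at 4 h. All adjusted p-values of the STAT genes at 4 h were 0.999 (limma).

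**Figure D2:**
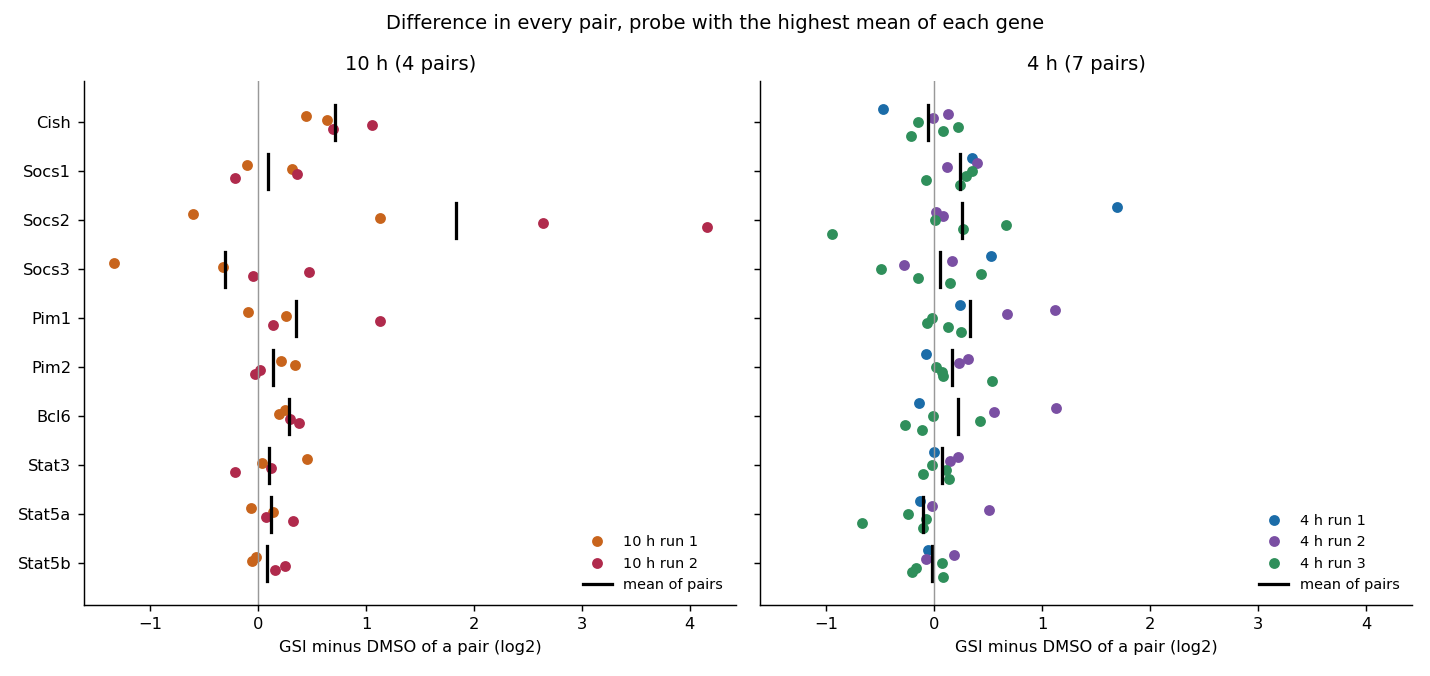
GSI minus DMSO (x axis, log2) in every pair at the probe with the highest mean of each gene, 10 h in the left panel and 4 h in the right; colours mark runs and black bars are means of pairs. Cish and Bcl6 are above 0 in all 4 pairs at 10 h, Socs2 spreads from -0.61 to 4.16 there, and run 2 stands out for Pim1 and Bcl6 at 4 h.

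Across the 10 genes, 9 had a positive value at 10 h, with a median of 0.12, while 46.2% of all genes were positive with a median of -0.01. At 4 h 7 of 10 were positive, with a median of 0.12, beside 54.3% of all genes and a median of 0.01. An unadjusted p under 0.05 was reached by Cish and Socs2 at 10 h (14.1% of all genes) and by Socs1 and Pim1 at 4 h. In the mean over both times no gene of the group passed, beside 71 genes (0.32%), although 5 of 10 had an unadjusted p under 0.05 (12% of all genes). Cish had a mean of 0.32 (adjusted p = 0.0779, limma), Socs2 1.04 (adjusted p = 0.201, limma) and Pim1 0.34 (adjusted p = 0.258, limma). At none of the 14 probes were the GSI and the DMSO group free of overlap, at either time, beside 2.72% of genes without overlap at 10 h and 0.0406% at 4 h.

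**Figure D3:**
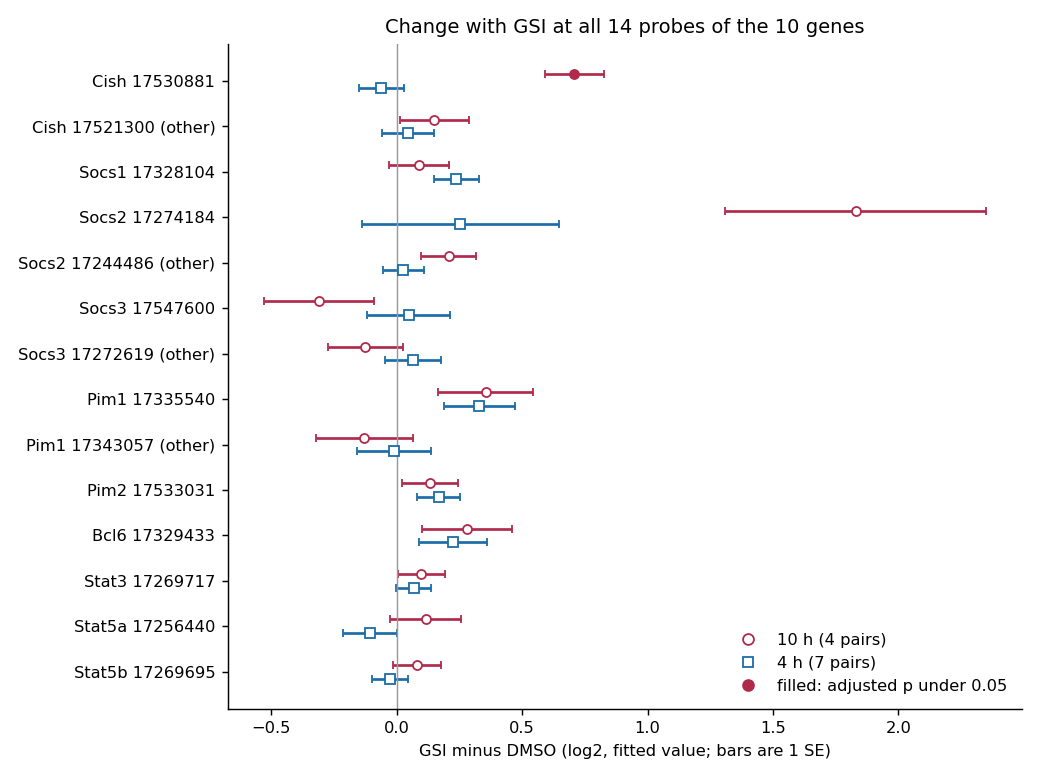
Fitted GSI minus DMSO difference (x axis, log2, bars 1 SE) at all 14 probes, with 10 h above 4 h for each probe; a filled point passed with all 23521 probes as features, where 0.595% passed at 10 h and 0.00425% at 4 h. Only the main Cish probe at 10 h is filled, and the other probes of Cish, Socs2, Socs3 and Pim1 lie nearer to 0 than the main ones at 10 h.

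Between the times, levels are described over each array's median and without a test, since each run belongs to 1 time and the effects of run and time cannot be told apart. Bcl6 averaged 1.07 over the median in GSI samples at 10 h, against 2.51 in GSI samples at 4 h, and 0.77 in DMSO samples at 10 h, against 2.28 in DMSO samples at 4 h. Neither pair of groups overlapped, which was the case with the lower level at 10 h for 7.94% of all genes in GSI and 6.51% in DMSO samples. The other 9 genes overlapped between the times at their main probe, and none of the 10 was higher at 10 h without overlap, as 25.4% of all genes were in GSI and 24.5% in DMSO samples. Cish had 3.16 at 10 h and 3.40 at 4 h in GSI samples, and 2.44 at 10 h and 3.46 at 4 h in DMSO samples. Socs2 had 1.52 at 10 h and 0.79 at 4 h in GSI samples, and -0.32 at 10 h and 0.53 at 4 h in DMSO samples. The other probes of Cish and Pim1 did differ without overlap, at -1.30 and -1.42 in GSI samples and -1.42 and -1.31 in DMSO samples (10 h minus 4 h).

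**Figure D4:**
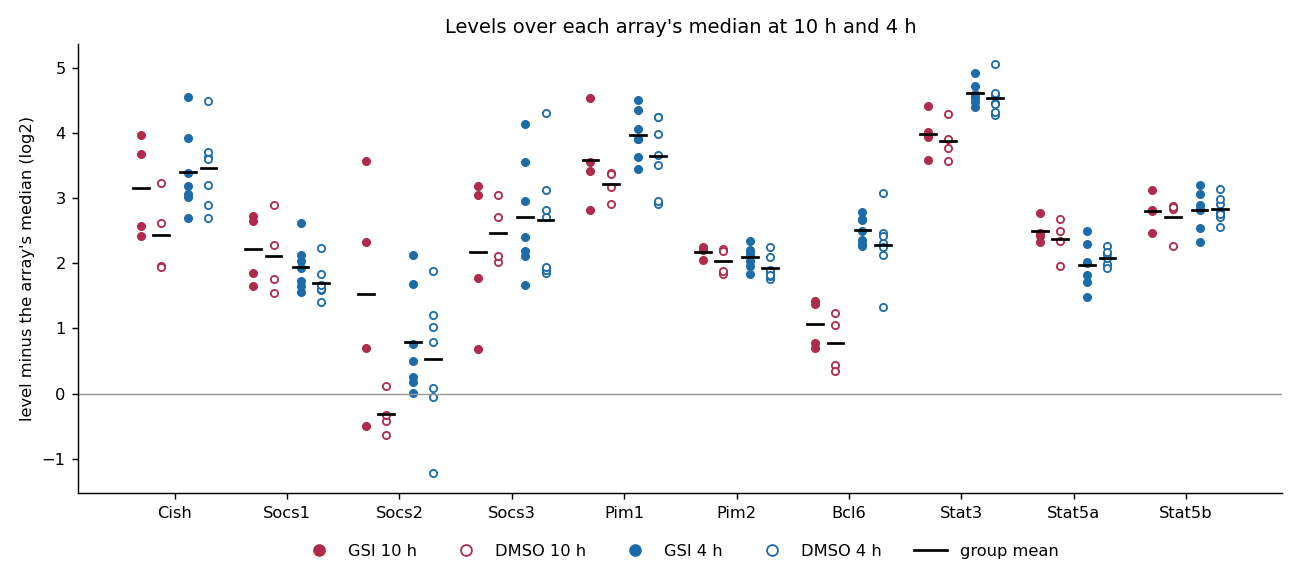
Level over the array's median (y axis, log2) of the main probe of each gene in every array, in the order GSI 10 h, DMSO 10 h, GSI 4 h and DMSO 4 h; bars are group means. Bcl6 is lower at 10 h without overlap, and DMSO samples of Socs2 at 10 h lie near the array median.

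Levels also differed between pairs whatever the treatment. At 4 h, pair 6 had the highest endothelial marker mean (10.40 in the GSI and 10.41 in the DMSO sample) and the lowest stem cell marker mean (6.90 in the GSI and 6.89 in the DMSO sample). Cish, Socs2, Socs3, Bcl6 and Stat3 were highest in that pair among GSI samples, 5 of 10 genes beside 27.3% of all genes. The same 5 were highest there among DMSO samples, beside 26% of all genes. The share of all genes highest there in both groups at once was not computed. Socs3 was at 9.18 in the GSI and 9.33 in the DMSO sample of pair 6. At 10 h, in pair 2, which had the highest endothelial mean, 1 of the 10 genes was highest among GSI samples (22.6% of all genes) and 2 among DMSO samples (21.3%), and Cish was lowest there among DMSO samples. In pair 6 at 4 h Stat5b went the other way, with its lowest levels there, 7.38 in the GSI and 7.59 in the DMSO sample. Within pairs the endothelial mean differed by -0.23 to 0.49 at 10 h and by -0.14 to 0.31 at 4 h. Its part in the levels was not tested.

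**Figure D5:**
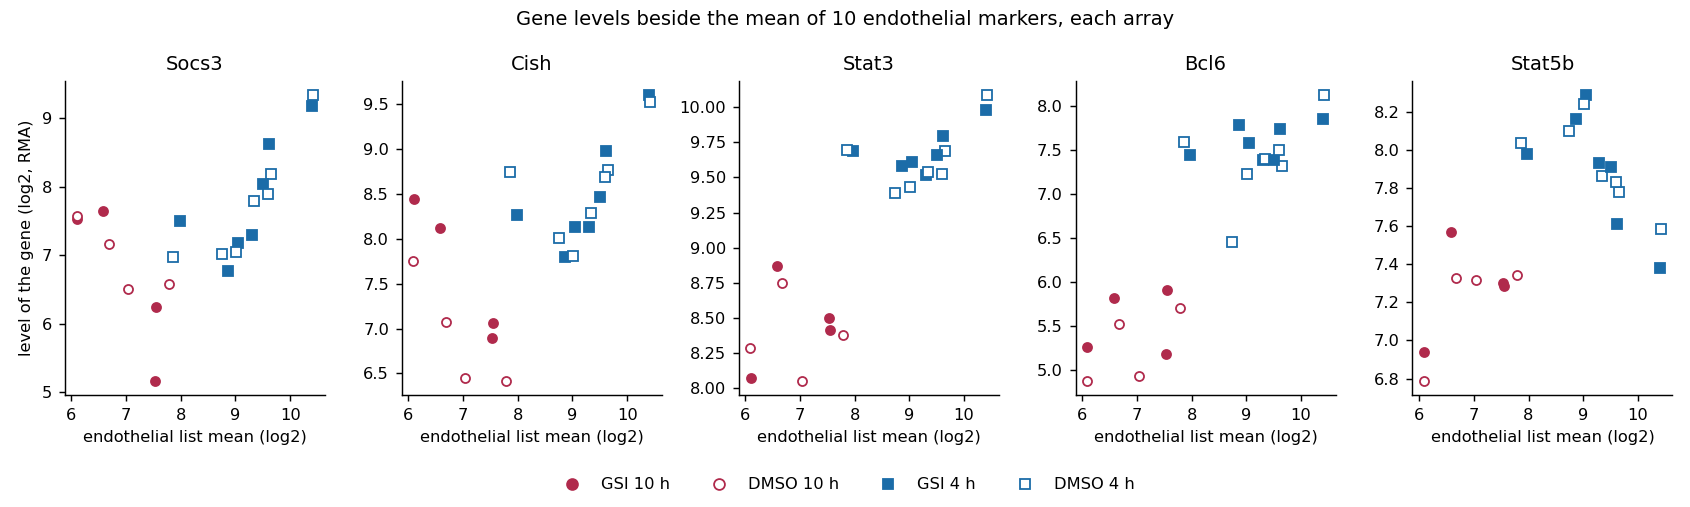
Log2 level of Socs3, Cish, Stat3, Bcl6 and Stat5b (y axes, each with its own scale) in each array against the mean of 10 endothelial markers (x axis, log2); filled symbols are GSI, open ones DMSO, circles 10 h and squares 4 h. The pair at an endothelial mean of about 10.4 has the highest 4 h levels of the first 4 genes and the lowest of Stat5b.

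Upstream in the pathway, 1 of 32 measured cytokine receptors that signal through JAKs passed at 10 h, where 0.667% of all genes did. This was Csf3r, the G-CSF receptor, whose signal runs through STAT3 and is damped by Socs3. It had a lowest, median and highest level of 7.00, 7.48 and 8.14 in GSI samples, against 5.57, 6.72 and 7.57 in DMSO samples. The pairs gave 1.43, 0.82, 0.57 and 0.72, and the gene rose by 0.88 ± 0.132 (SE, 4 pairs; adjusted p = 0.00816, limma). At 4 h it gave 0.01. Receptors as a list were positive in 18 of 32 cases at each time, beside 46.2% of all genes at 10 h and 54.3% at 4 h, with medians of 0.02 at 10 h and 0.01 at 4 h. None of 3 JAK kinases passed, and at 10 h Jak1 had 0.13, Tyk2 0.04 and Jak2 -0.01.

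Of 22 measured cytokine ligands in the list none passed, and 6 were positive at 10 h (46.2% of all genes were) and 12 at 4 h (54.3%). The 3 with the smallest p at 10 h had negative values: Ifng -0.22, Il11 -0.20 and Il6 -0.46. The ligand list does not hold Il12a, a subunit of IL-12, which rose by 1.19 at 10 h (adjusted p = 0.000146, limma). Among 8 other SOCS, Pim and STAT genes none passed and 4 were positive at each time, with Stat4 at 0.58, Socs7 at 0.21 and Stat6 at 0.15 at 10 h. Other brakes of the pathway, such as phosphatases and PIAS proteins, were positive in 12 of 16 cases at 10 h and 14 of 16 at 4 h, beside 46.2% of all genes at 10 h and 54.3% at 4 h, with medians of 0.07 at 10 h and 0.05 at 4 h, and none passed. Sh2b3, the adaptor LNK that restrains thrombopoietin signalling in stem cells, was the first of them by p at 10 h, with 0.46 ± 0.139 (SE, 4 pairs), positive in 4 of 4 pairs (adjusted p = 0.141, limma). Pias1 had 0.27 and Pias2 0.24. Dusp1 went the other way, with -0.27 and a positive difference in 0 of 4 pairs (unadjusted p = 0.0259 and adjusted p = 0.272, limma).

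Known target genes were mixed in sign at 10 h. Of 20 STAT5 targets 11 were positive at 10 h (46.2% of all genes were) and 14 at 4 h (54.3%), and none passed. Id1, an inhibitor of basic helix-loop-helix factors, gave 0.52 ± 0.134 (SE, 4 pairs), positive in 4 of 4 pairs (adjusted p = 0.093, limma). Ccnd1, cyclin D1, gave 0.59 (adjusted p = 0.107, limma) and the survival gene Bcl2 0.32. Of 20 STAT3 targets 7 were positive at 10 h, with a median of -0.05, and 17 at 4 h, with a median of 0.06. None of these passed either, and at 10 h Bcl3 had 0.41, Il4ra 0.28 and Vegfa 0.25. Of 9 Bcl6 targets and partners 4 were positive at 10 h and 5 at 4 h without a gene that passed, and at 10 h Cd69 had 0.74 (adjusted p = 0.105, limma), Zbtb16 -0.50 and Irf4 -0.21. An unadjusted p under 0.05 (limma) was reached at 10 h by 6 receptors, 0 JAK kinases, 0 ligands, 1 other SOCS, Pim or STAT gene, 4 brakes, 4 STAT5 targets, 3 STAT3 targets and 2 Bcl6 targets, beside 14.1% of all genes. At 4 h it was reached by 2 receptors, 0 JAK kinases, 2 ligands, 0 other SOCS, Pim or STAT genes, 0 brakes, 4 STAT5 targets, 0 STAT3 targets and 1 Bcl6 target, beside 4.21% of all genes.

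As a description, the genes whose 11 pair differences tracked those of Cish most closely were Cdh15 (Pearson's r = 0.938), Fry (0.934), Il12a (0.899), Anapc4 (0.897) and Kcnip4 (0.89). Over the 4 pairs of 10 h alone r was 0.48 for Cdh15, 0.935 for Fry, 0.343 for Il12a, 0.511 for Anapc4 and 0.758 for Kcnip4. Of these, Il12a, a subunit of the cytokine IL-12, rose at 10 h, by 1.19 (adjusted p = 0.000146, limma). For Socs2 they were Nqo2 (0.943), Noa1 (0.919), Tank (0.915), Olfr311 (0.912) and Pxk (0.904), none of which passed at 10 h, with r between 0.891 and 0.994 over the 4 pairs of 10 h. The 11 pairs share 5 runs and 2 times, and the genes were picked as the highest of all 22180.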

How the data were processed

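The deposited values are log2 expression levels that the authors summarised by RMA in Partek 6.6 (submitters' processing notes). The genome build of the probes is not given in the sources used here, nor whether both times were normalized together. Of 41345 probes, 23521 have 1 gene symbol in the platform annotation, 1814 have several and 16010 have none there; the last 2 kinds were left out. A gene was represented by its brightest probe on average (22180 genes, 1082 with more than 1 probe), and no gene was removed for low signal. No array was a copy of another (highest correlation 0.988, at most 48 identical values). The number of arrays limits the precision.

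One model was fitted to all 22 arrays with lmFit and eBayes (intensity trend) in limma 3.58.1, R 4.3.3, with the pair as a fixed block. Tests were 2-sided, with Benjamini-Hochberg adjustment over all genes and a threshold of 0.05. The code was tested on simulated data. A second fit gave each run its own GSI effect. The design text is the source of the pairing: GSI and DMSO deviations within a pair correlated at 0.213 to 0.449 at 10 h and 0.223 to 0.872 at 4 h. A DMSO sample correlated best with the GSI sample of its own pair in 4 of 4 pairs at 10 h and 6 of 7 at 4 h. The 10 genes are all named with every probe; from the other pathway lists, genes that passed are named, otherwise up to 3 with the smallest p at 10 h, and for Cish and Socs2 the 5 genes most alike. Dusp1 is named besides, as a brake with a negative value. The genes and lists were chosen with earlier results of these data known. Alternatives covered the block, separate times, trend, normalization, probe choice, signal filter, left-out pairs and single runs.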

Additional observations from a re-analysis of the deposited data

Results flagged for a closer look

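Single samples lay apart from the rest of their group in 4 of the 56 groups of 4 or 7 values examined (each of 14 probes in each of 4 groups); chance sets apart about 5%. All 4 were at 10 h. The other Cish probe (17521300) was lowest in the DMSO sample of pair 1, at 4.42 with the next at 5.0995. The other Socs2 probe (17244486) was highest in the DMSO sample of pair 4, at 4.96 with the next at 4.71. Pim2 was lowest in the GSI sample of pair 1, at 6.53 with the next at 6.68. Stat5b was lowest in the DMSO sample of pair 4, at 6.79 with the next at 7.32.

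Stat5b at 10 h was picked out because both pairs of run 2 had a positive GSI minus DMSO difference (0.24 and 0.15) and both pairs of run 1 a negative one (-0.02 and -0.06). Run 2 minus run 1 was 0.24, which did not pass in the fit by run (adjusted p = 0.797, limma).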

How the results depend on the processing

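Each of 22 values of single genes was recomputed under 19 to 22 of 24 alternatives; of 478 values 450 kept their direction and side of the threshold. At 10 h 1 of the 10 genes passed; 0 did with no replicate block (Cish 0.71, adjusted p = 0.86, limma; 0 genes in all), with each time fitted alone (adjusted p = 0.392), with quantile normalization (0.60, adjusted p = 0.0607), with the mean of all probes (0.43, adjusted p = 0.111) and within run 1 (0.54, adjusted p = 0.867); with run 2 fitted alone Socs2 passed (3.40, adjusted p = 0.00135; 15 genes in all) and Cish did not (0.87, adjusted p = 0.221), though in the joint fit by run it did (adjusted p = 0.0454). Leaving out 1 pair gave 0 to 2 genes at 10 h: 0 without pair 4, and 2, Cish and Socs2, without pair 1. Cish then ran between 0.59 and 0.80. At 4 h 0 passed, but 2, Pim1 and Bcl6, passed within run 2 (0.89 and 0.84). In the mean of both times 0 passed, but 1 did (Cish) with genes above the median signal only, and 0 to 1 with 1 pair left out (Cish without pair 1 of 4 h, Socs2 without pair 1 of 10 h). The difference between times had 0 under every alternative that gave it; the fits of each time alone gave no value for it or for the mean. No value that changed sign had passed. At 10 h these were Stat5b with loess (-0.0092) and within run 1 (-0.0384), Socs3 (0.22), Stat3 (-0.0465) and Pim2 (-0.0056) within run 2, and, leaving out 1 pair, Socs3 (-0.57 to 0.0351) and Stat3 (-0.0201 to 0.20). At 4 h they were Cish (0.0601), Socs3 (-0.0577), Stat5a (0.24) and Stat5b (0.0529) within run 2, Socs2 (-0.0023) and Socs3 (-0.0179) within run 3, and, leaving out 1 pair, Cish (-0.11 to 0.0071), Socs3 (-0.0312 to 0.14) and Stat5b (-0.0608 to 0.0045). Csf3r at 10 h lost its call with no replicate block (adjusted p = 0.889), with each time alone (0.359) and within runs 1 (1.12, 0.813) and 2 (0.65, 0.474). Genes passing at 10 h numbered 148 as reported, 2 with each time alone, 37 with quantile and 63 with loess normalization, 91 with no trend, 285 of 11090 above the median signal, and 27 to 228 with 1 pair left out. Quantile normalization moved array medians by up to 0.417 at 10 h and 0.256 at 4 h, loess by up to 0.431 and 0.203. The causes were not tested.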
